A study of Mus musculus with 9 samples.

Results

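Immediate early genes are transcribed within minutes of a stimulus from factors already present in the cell. The 10 described here, Fos, Fosb, Jun, Junb, Egr1, Atf3, Ier2, Ier3, Dusp1 and Zfp36, were chosen as a named list and matched by gene symbol among the 54491 rows of an expression table of mouse colon, and all 10 were found. All 10 also passed the filter on low values, a level of 0.5 FPKM or more in 3 or more libraries, which 17907 genes passed. FPKM is the number of sequenced fragments per kilobase of transcript, scaled to the size of the library. The table holds 9 libraries of total RNA from colon tissue of C57BL/6 mice at postnatal day 98, from a study that placed 45 mice of 6 weeks of age in 3 groups of 15. Control mice are labelled only as control (libraries 1, 2 and 3), the HFD group received a high-fat diet (libraries 1, 2 and 4), and the third group received the high-fat diet and, by gavage into the stomach, the gut bacterium Papillibacter cinnamivorans (libraries 1, 3 and 4). Gavage is named for the third group alone, so the bacterium and the procedure cannot be told apart. The labels do not give the diet of the controls, the stretch of colon, whether each library is a separate mouse, or a batch or date. P-values therefore measure the spread between these libraries, which may in part be technical.

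Growth factors, cytokines and cell stress reach immediate early promoters through the MAP kinases ERK, JNK and p38. Directly or through other kinases, these act on factors such as SRF with its ELK partners, CREB, ATF2 and JUN itself. Apart from IER2 and IER3, described below, the products are transcription factors or inhibitors. JUN, JUNB, FOS and FOSB pair through leucine zippers into the factor AP-1, EGR1 is a zinc finger factor, and ATF3 is a CREB-family factor induced by stress; DUSP1 removes phosphate from MAP kinases and ZFP36 (tristetraprolin) binds AU-rich elements and destabilizes cytokine mRNAs, so both close feedback loops. In gut tissue these genes are known from injury, inflammation and regrowth.

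Promoters of 4 members are shown because Jun and Junb gave the results below that passed or came nearest to the test, while Fos and Dusp1 stand for the induced factors and for the feedback inhibitors. Each line holds the 250 bases before the start of the gene in the RefSeq annotation of GRCm38.p6, which held 8 of the 10 members (not Ier2 or Egr1), read 5′ to 3′ on the strand of the gene. Capitals mark TGACG (the core of the cyclic AMP response element, CRE), TGACNTCA (a CRE with any base at N), TGANTCA (the AP-1 site) and the CArG box bound by SRF, each searched on both strands.
Jun: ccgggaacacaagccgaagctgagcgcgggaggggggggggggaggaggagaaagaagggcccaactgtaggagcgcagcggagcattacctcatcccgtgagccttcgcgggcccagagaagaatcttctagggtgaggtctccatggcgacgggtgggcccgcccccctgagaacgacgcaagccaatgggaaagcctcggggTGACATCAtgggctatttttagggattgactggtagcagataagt
Junb: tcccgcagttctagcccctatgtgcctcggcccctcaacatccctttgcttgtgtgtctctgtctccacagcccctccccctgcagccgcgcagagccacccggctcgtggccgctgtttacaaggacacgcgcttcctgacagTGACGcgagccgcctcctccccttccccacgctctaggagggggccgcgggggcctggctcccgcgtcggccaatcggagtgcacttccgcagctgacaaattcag
Fos: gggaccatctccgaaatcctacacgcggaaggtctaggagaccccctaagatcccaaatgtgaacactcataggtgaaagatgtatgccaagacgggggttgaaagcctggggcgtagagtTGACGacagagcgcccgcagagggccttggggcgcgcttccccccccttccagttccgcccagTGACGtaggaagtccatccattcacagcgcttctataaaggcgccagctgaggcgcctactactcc
Dusp1: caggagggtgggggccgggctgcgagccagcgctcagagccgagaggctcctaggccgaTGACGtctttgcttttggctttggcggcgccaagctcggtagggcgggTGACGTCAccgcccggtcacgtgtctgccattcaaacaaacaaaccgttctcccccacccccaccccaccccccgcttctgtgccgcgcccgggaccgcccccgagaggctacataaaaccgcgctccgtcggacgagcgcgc
The window of Jun is chr4:95052223-95052472 on the minus strand, that of Junb chr8:84978749-84978998 on the minus strand, that of Fos chr12:85473640-85473889 on the plus strand and that of Dusp1 chr17:26508473-26508722 on the minus strand. Jun held TGACATCA from 45 to 38 bases before the start, a match to TGACNTCA, which 2 of 8 member windows (Jun and Dusp1) and 7.49% of 32851 windows of the same length held. Dusp1 held the full CRE, TGACGTCA, from 143 to 136 bases before the start, as did 1.55% of all windows. TGACG, which overlaps the full CRE, was found in 5 of 8 members (Atf3, Fosb, Junb, Fos and Dusp1) and in 17.8% of all windows. TGANTCA was in none of the 8 and in 6.75% of all windows, and the CArG box was in 1 member, Zfp36, and in 1.47%. These matches describe letters in the sequence and no binding. Sites farther than 250 bases upstream were not searched, nor were the promoters of Ier2 and Egr1.

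The deposited values keep the fragments behind them. In 17906 of the 17907 tested genes the values were whole multiples of 1 fragment within a tolerance of 0.001, and the members had 72 to 4278 fragments per library, a counting error of 11.8% to 1.53%. The fragments recovered over the tested genes numbered 13542001 to 16816183 per library. Markers of tissue makeup differed between groups and are set beside the members here. None of 8 epithelial markers was at 0 in every library of a group, and their summed level was 4033 to 7577 FPKM in control, 3788 to 4572 in HFD and 3736 to 4685 with the bacterium. The 6 posterior Hox genes, which mark the distal gut, summed to 260.7 to 281.4 FPKM in HFD against 5.5 to 34.3 in control and 14.8 to 15.8 with the bacterium, with Hoxd12 at 0 in the last 2 groups, while 7 anterior Hox genes summed to 4.64 to 5.51, 25.6 to 131 and 62.8 to 100.2 FPKM in the same order. The 5 B cell markers summed to 80.9 to 107 FPKM in HFD, 2.30 to 13.7 in control and 5.48 to 9.17 with the bacterium, and 7 macrophage markers to 559 to 604, 196 to 256 and 149 to 241 FPKM. Fibroblast markers (6 genes) were also highest in HFD, at 221 to 236 FPKM against 84.3 to 193 in control and 152 to 208 with the bacterium. Enteric neuron markers (6 genes) were lowest in HFD without overlap, as Jun also was. They summed to 23.7 to 28.9 FPKM against 44.7 to 115 in control and 48.0 to 100.5 with the bacterium. Control and the bacterium group overlapped for these markers but not for Jun. Enteric glia markers (5 genes) were also lowest in HFD, at 43.3 to 60.9 FPKM against 76.2 to 141 in control and 73.4 to 107 with the bacterium. Smooth muscle markers (7 genes) summed to 1283 to 6699 FPKM in control, with the highest sum in control 1. They summed to 1272 to 1428 FPKM in HFD and to 1732 to 3112 with the bacterium. HFD thus lay below the bacterium group without overlap, while control overlapped both. The part of these differences in the results for the immediate early genes was not tested. In bulk tissue, fewer cells of a type and less RNA per cell cannot be told apart.

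The 10 genes covered a wide range of levels, and their order changed with the group. In control, Jun (71.4 ± 6.97 FPKM, SD, n = 3), Ier2 (64.7 ± 7.54) and Junb (51.4 ± 14.5) led, followed by Zfp36 (32.3 ± 10.5), Fos (27.2 ± 10.7), Atf3 (19.8 ± 14.5), Dusp1 (17.0 ± 8.77), Ier3 (15.6 ± 7.86), Egr1 (7.80 ± 2.97) and Fosb (1.32 ± 0.467). Among neighbours in that order only Egr1 and Fosb had ranges that did not overlap. In HFD the order opened with Ier2 (68.4 ± 4.62 FPKM), whose range lay above that of Junb (39.5 ± 14.7), and Jun came behind Ier2, Junb and Fos at 30.6 ± 3.05 FPKM, overlapping Fos (31.0 ± 9.02). With the bacterium, Ier2 (53.0 ± 5.77 FPKM) and Jun (49.5 ± 5.25) overlapped each other and lay above Fos (23.6 ± 5.88), and Junb came behind Atf3 at 18.2 ± 1.33 FPKM. Fosb was the lowest of the 10 in every group.

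**Figure D1:**
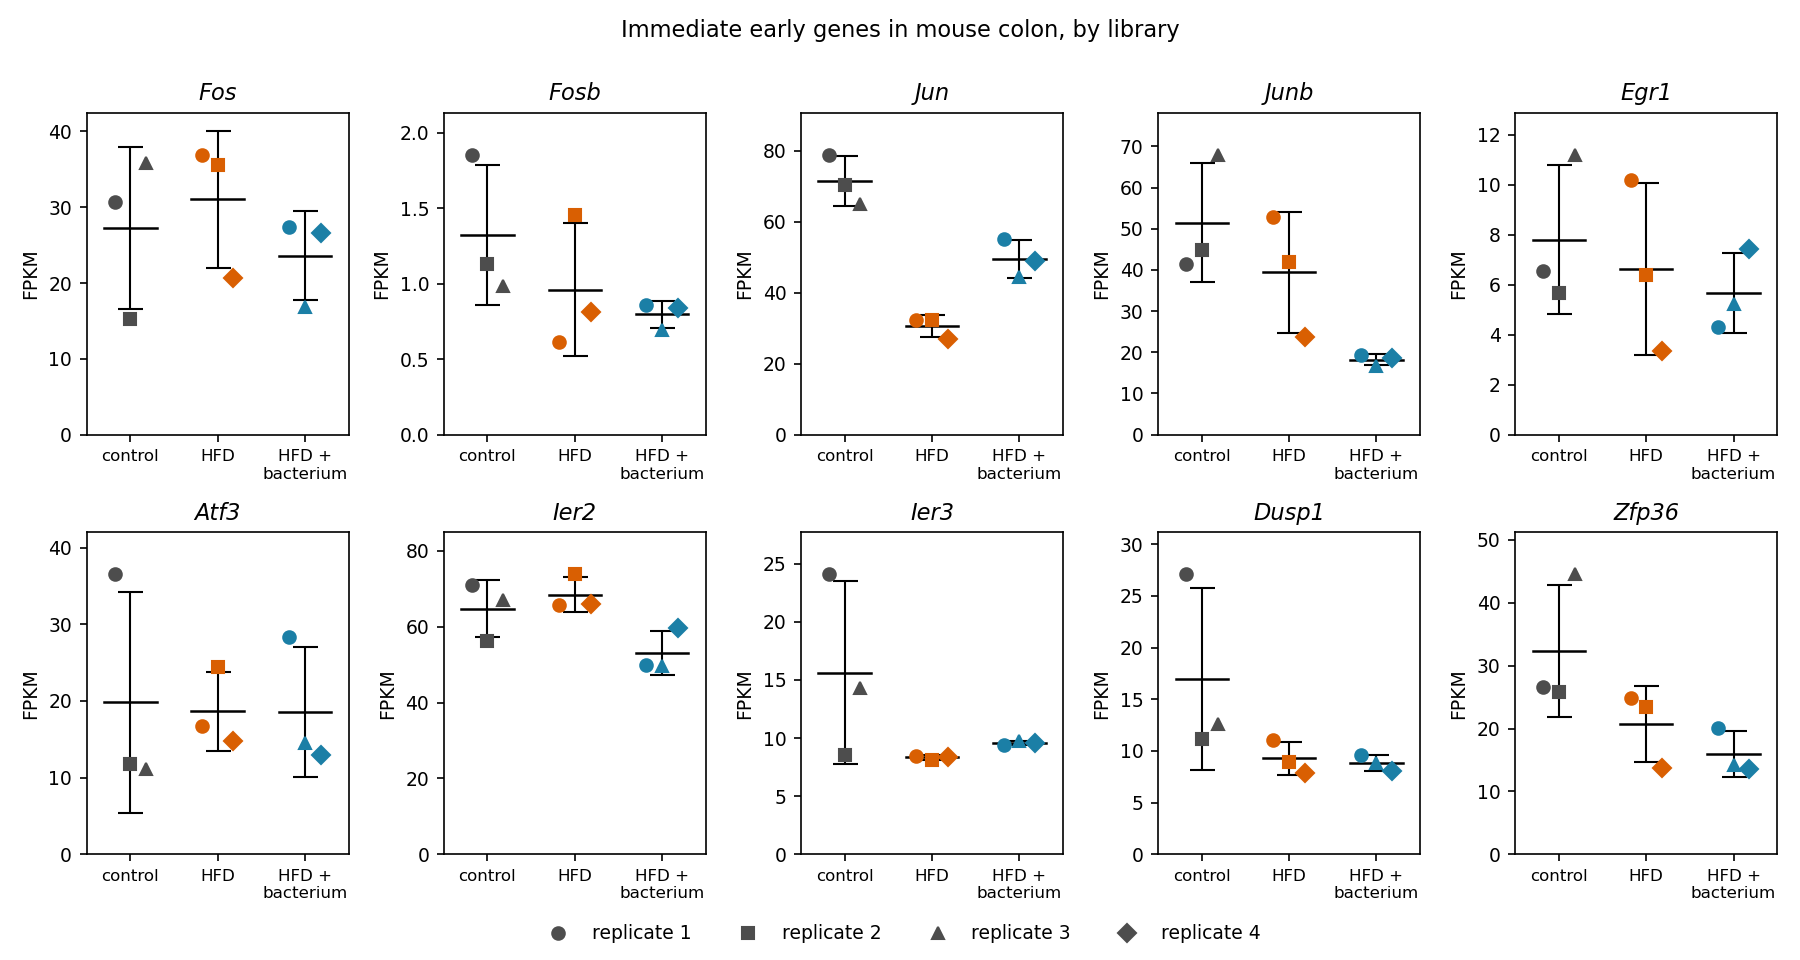
FPKM of the 10 immediate early genes in each library (points, shaped by replicate number) by group, with the group mean and SD (bars, n = 3). Jun is the member whose 3 groups are fully apart, Junb is low in the 3 libraries with the bacterium, and single control libraries stand high for Atf3, Ier3, Dusp1, Junb and Zfp36.

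In HFD colon against control, 1 of the 10 members passed the test: Jun fell. The posterior and anterior Hox sums of HFD did not overlap those of either other group, and the stretch of colon is not given. In comparisons with HFD, treatment and stretch of colon therefore cannot be told apart. The limma test called 9.11% of all tested genes lower and 10.6% higher (adjusted p below 0.05 over all 17907 genes), so 1 called member in 10 is below the share of all genes called in either direction, 19.7%. In 4 members (Jun, Ier3, Dusp1 and Zfp36) every HFD library lay below every control library, and in none above; over all genes, 20.1% lay below and 21.9% above in this way, 42.1% in all. The median log2 difference over the 10 was -0.34, beside -0.001 over all tested genes. The median moved with single libraries and with the scaling: it was -0.62 without HFD 1, -0.15 without HFD 4 and -0.34 without control 1, and -0.15 with each library scaled to the same sum and -0.16 after rescaling without mitochondrial and immunoglobulin genes, which moved the median of all genes to 0.24 and 0.17.

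With the bacterium against HFD, Jun was called higher and no member lower. The bacterium, its gavage and the stretch of colon cannot be told apart here. Limma called 4.54% of all tested genes higher, 7.60% lower and 12.1% in either direction. Junb missed the threshold in this fit and passed it in some alternatives described below. Jun and Ier3 lay without overlap above HFD, as did 18.7% of all genes, and Junb and Ier2 without overlap below, as did 20.3%. The median log2 difference of the 10 was -0.11, beside -0.01 over all genes.

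Against control, limma called 0 of 10 members in the libraries with the bacterium, beside 1.11% of all genes (0.262% higher and 0.843% lower). At an unadjusted p below 0.05, 4 members were lower (Jun, Junb, Dusp1 and Zfp36) and 0 higher. Of the 17907 tested genes, Dusp1 ranked 2428 by p, and Ier2, which missed that threshold, ranked 4296. The number of all genes passing the unadjusted threshold thus lies between these ranks. By the same bounds it lies between 5511 (Dusp1) and 6437 (Zfp36) in HFD against control. With the bacterium against HFD it is at least 3726 (Ier2). Exact shares were not computed, so the unadjusted counts of the lists below cannot be set against them. Limma voom on the recovered fragments called 1, Junb, lower. Over all genes voom called 3784 in HFD against control, 2344 with the bacterium against HFD and 211 with the bacterium against control. Fosb, Jun, Junb, Dusp1 and Zfp36, 5 of the 10, lay without overlap below control and none above, beside 11.9% and 9.86% of all genes, 21.7% together. The median log2 difference was -0.45, beside -0.01 over all genes, and -0.31 without control 1. The 3 comparisons share libraries in pairs and are not independent of each other.

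**Figure D2:**
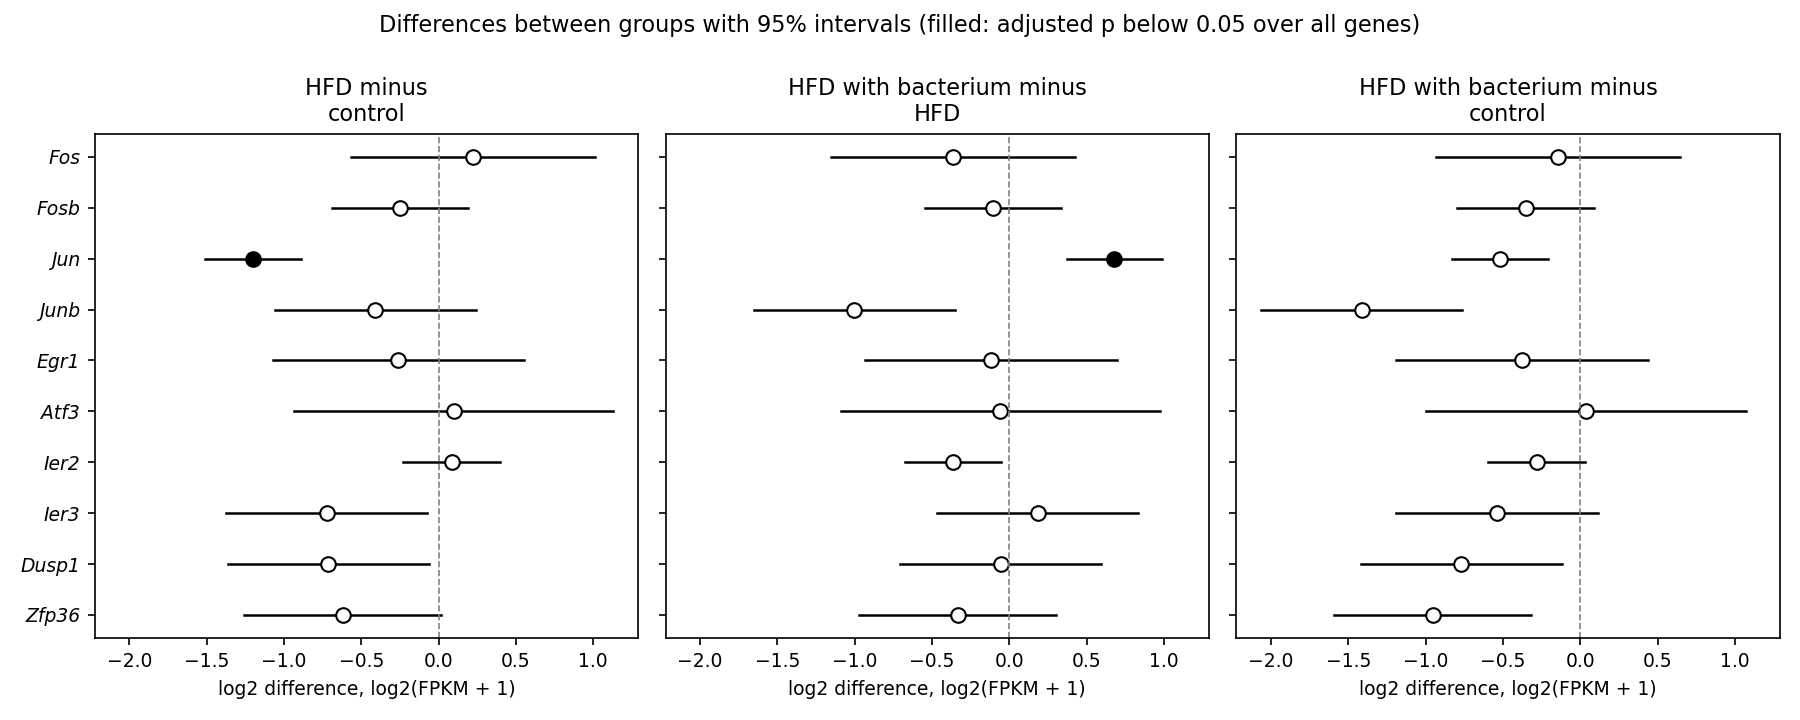
Log2 differences, on the log2(FPKM + 1) scale, of the 10 members in the 3 comparisons, with 95% intervals from the limma fit over all 9 libraries; filled points passed an adjusted p of 0.05 over all tested genes. The filled points are Jun in HFD against control (-1.20) and Jun with the bacterium against HFD (0.68).

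Jun encodes the AP-1 subunit that JNK phosphorylates, and it pairs with FOS proteins or with itself. Its level was 78.9, 70.3 and 65.1 FPKM in control, 32.4, 32.3 and 27.0 FPKM in HFD, and 55.0, 44.5 and 49.0 FPKM with the bacterium. No group overlapped another. HFD was lowest in all 3 libraries, as it was for the anterior Hox genes and the enteric neuron and glia markers. The part of these in Jun was not tested. The libraries with the bacterium lay between HFD and control. Jun fell in HFD to 0.428 times its control level (log2 difference -1.20, SE 0.14, limma adjusted p = 0.0007, lower in 3 of 3 libraries). It kept that call in all 20 alternatives, with log2 differences from -1.26 to -0.94 and adjusted p from 0.000461 to 0.00904. With the bacterium it rose to 1.62 times the HFD level (log2 difference 0.68, SE 0.14, limma adjusted p = 0.0129, range over alternatives 0.00635 to 0.0677). That call was lost when each library was scaled to the same sum (0.49, adjusted p = 0.0677), without HFD 4 (0.60, adjusted p = 0.0557) and without the bacterium library 1 (0.60, adjusted p = 0.0558). Against control the level with the bacterium was 0.693 times as high (log2 difference -0.52, 95% interval -0.83 to -0.21, limma adjusted p = 0.0908), which did not pass in any of the 20 alternatives. Junos, an antisense transcript at the same locus, measured 0.361 to 0.673 FPKM, and the sources used here do not say whether strand was used in counting.

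Junb encodes a JUN relative that binds the same sites, activates less strongly than JUN and restrains it in some settings. It measured 41.4, 44.8 and 68.0 FPKM in control, 52.9, 41.8 and 23.8 in HFD, and 19.3, 16.8 and 18.6 with the bacterium. The 3 libraries with the bacterium were below the other 6, while control and HFD overlapped. The level with the bacterium was 0.355 times control (log2 difference -1.41, SE 0.29, limma adjusted p = 0.0528, lower in 3 of 3 libraries) and 0.462 times HFD (-1.0, SE 0.29, limma adjusted p = 0.0542), so neither difference passed. Of 20 alternatives each, 4 called Junb against control, with adjusted p from 0.0336 to 0.277, and 9 called it against HFD, with adjusted p from 0.0134 to 0.177. HFD differed from control by -0.41 (95% interval -1.06 to 0.24, limma adjusted p = 0.344). The order of the groups was thus not that of Jun: Jun was lowest in HFD and Junb lowest with the bacterium. The 3′ end of Junb overlaps that of Prdx2 in the GENCODE M21 annotation, and Prdx2 measured 49.1 to 67.3 FPKM, so some fragments there could belong to either gene.

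The makeup of the Jun family shifted with these 2 genes. The third relative, Jund, which is expressed constitutively in many tissues, made up 49.3% ± 5.57 of summed Jun family FPKM in control, 50.1% ± 4.91 in HFD and 46.6% ± 3.46 with the bacterium. The share of Jun was 29.3, 31.6 and 27.2% in control, 21.1, 20.2 and 25.5% in HFD, and 38.5, 37.0 and 41.6% with the bacterium, so that no group overlapped another. Shares and ratios within a library do not depend on how libraries were scaled. Junb stood at 0.525, 0.638 and 1.04 times Jun in control, at 1.63, 1.3 and 0.879 times in HFD, and at 0.352, 0.377 and 0.380 times with the bacterium. The ratio was lowest in all 3 libraries with the bacterium, while control and HFD overlapped. The summed family level was 244 ± 24.0 FPKM in control, above the 140 ± 29.6 FPKM of HFD and the 127 ± 13.8 FPKM with the bacterium without overlap. With 3 libraries against 3, the exact two-sided permutation test cannot go below p = 0.10, and over the 39 such comparisons made (13 measures of the Jun and Fos families) the lowest adjusted value was 0.28.

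**Figure D3:**
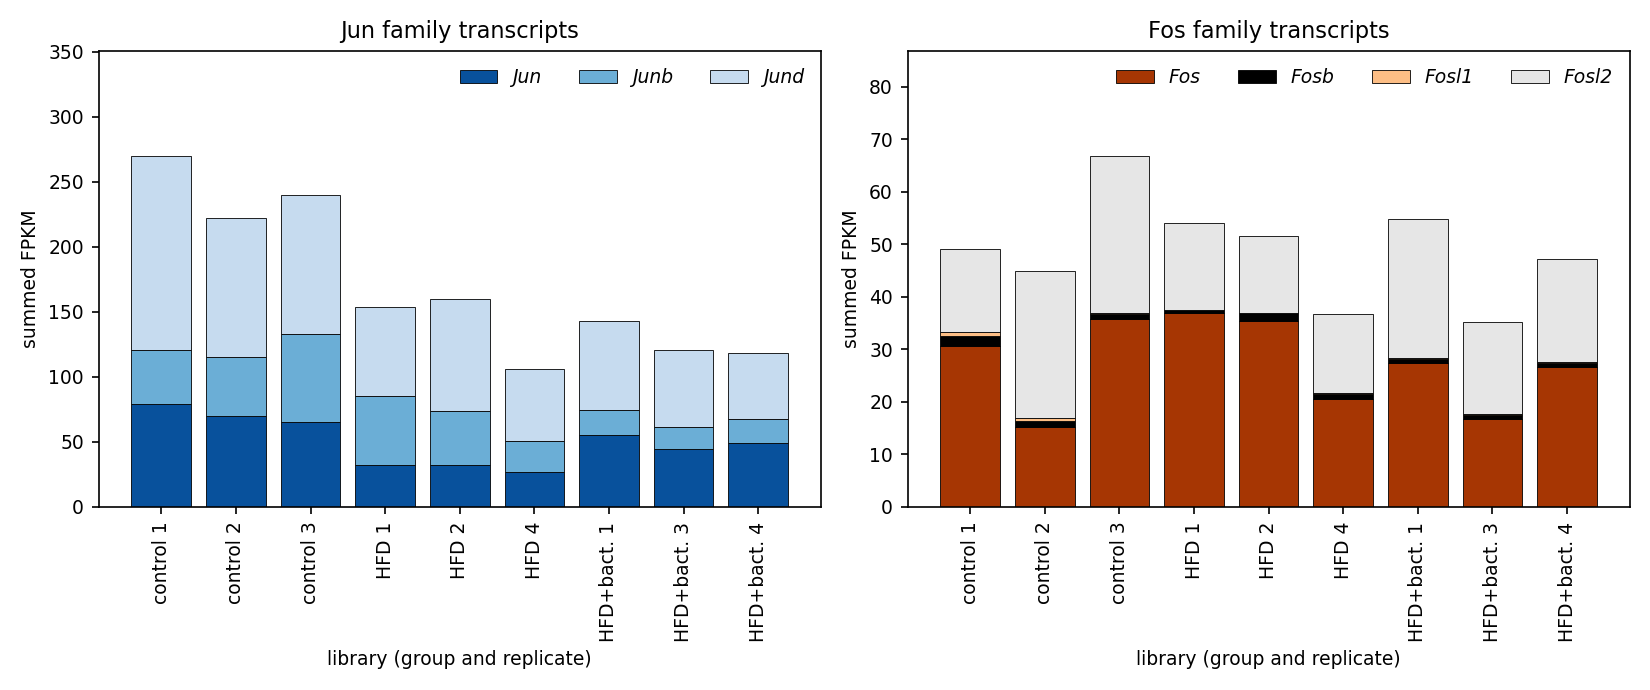
Summed FPKM of the Jun family (left) and the Fos family (right) in each library, stacked by gene. Jun family transcripts are highest in the 3 control libraries, the Jun layer is thinnest in HFD and the Junb layer thinnest with the bacterium, while the Fos family sums overlap between groups.

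Fos and Fosb encode AP-1 subunits that cannot pair with themselves and need a JUN partner. Fos measured 30.7, 15.2 and 35.8 FPKM in control, 36.9, 35.5 and 20.6 in HFD, and 27.4, 16.8 and 26.6 with the bacterium. Each group held 2 high libraries and 1 low library (control 2, HFD 4 and the bacterium library 3), and all groups overlapped. The log2 differences were 0.22 for HFD against control (95% interval -0.57 to 1.01), -0.37 for the bacterium against HFD (-1.16 to 0.42) and -0.15 for the bacterium against control (-0.94 to 0.64), with limma adjusted p of 0.692, 0.545 and 0.862. Changes of a log2 unit in some directions lie inside these intervals, and a p that misses the threshold does not show that values did not differ. Fosb, with 72 to 197 fragments per library the most shallowly measured member, was at 1.86, 1.13 and 0.984 FPKM in control, 0.615, 1.46 and 0.814 in HFD and 0.860, 0.692 and 0.839 with the bacterium. Its libraries with the bacterium were all below control, and its differences did not pass (log2 differences -0.25, -0.10 and -0.35, limma adjusted p = 0.399, 0.776 and 0.356 in the same order). The ratio of Fos to Jun was 0.389, 0.217 and 0.550 in control, 1.14, 1.10 and 0.764 in HFD and 0.498, 0.378 and 0.542 with the bacterium. It was highest in all 3 HFD libraries, and the other groups overlapped. Fosl2, a slower Fos relative, measured 24.7 ± 7.59 FPKM in control, 15.4 ± 1.01 in HFD and 21.2 ± 4.71 with the bacterium, and Fosl1 was too low to be tested. Summed Fos family levels overlapped between all groups (53.6 ± 11.6, 47.4 ± 9.38 and 45.8 ± 9.90 FPKM).

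Egr1 and Atf3 varied within groups more than between them. Egr1, a target of SRF and ELK factors, measured 6.54, 5.66 and 11.2 FPKM in control, 10.2, 6.38 and 3.34 in HFD and 4.32, 5.23 and 7.42 with the bacterium. The groups overlapped, and HFD held both a high and the lowest library. Its log2 differences were -0.26, -0.12 and -0.38 (limma adjusted p = 0.648, 0.870 and 0.620). Atf3, a stress-induced repressor and activator that pairs with JUN proteins, measured 36.5, 11.8 and 11.2 FPKM in control, 16.8, 24.5 and 14.7 in HFD and 28.4, 14.5 and 12.9 with the bacterium. Control 1 and the bacterium library 1 were high, and the group means of 19.8, 18.7 and 18.6 FPKM lay within 1 SD of each other. Its 95% intervals reached from about a log2 unit below to a log2 unit above 0 (-0.94 to 1.13 for HFD against control), with limma adjusted p of 0.902, 0.950 and 0.977.

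Ier2 and Ier3 share a name but not a pattern. Ier2, a nuclear protein of growth factor responses, was the steadiest member, at 70.8, 56.3 and 66.9 FPKM in control, 65.6, 73.8 and 65.9 in HFD and 49.8, 49.5 and 59.6 with the bacterium. The libraries with the bacterium lay below all HFD libraries, and control overlapped both groups. The difference from HFD was -0.37 on the log2 scale (SE 0.14, 95% interval -0.68 to -0.06, limma adjusted p = 0.125), not called in any of 20 alternatives (adjusted p 0.0643 to 0.333). Ier3, a modulator of cell survival and of NF-kB and ERK signalling, was at 24.1, 8.52 and 14.3 FPKM in control, 8.49, 8.13 and 8.38 in HFD and 9.43, 9.76 and 9.61 with the bacterium. Control ranged widely, control 2 lay just above HFD 1, and the HFD and bacterium groups did not overlap each other. The spread within HFD (CV 2.18%) and with the bacterium (1.76%) was smaller than the counting error of single libraries (7.24% to 8.19%). HFD was lower than control by 0.72 on the log2 scale (SE 0.29, limma adjusted p = 0.110), which was called in 1 of 20 alternatives, without control 2 (-1.07, adjusted p = 0.0132); without control 1 the difference was -0.37. With the bacterium the difference from HFD was 0.18 (95% interval -0.47 to 0.83, limma adjusted p = 0.731).

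Dusp1 and Zfp36, the inhibitors of the list, were highest in control. Dusp1 was at 27.1, 11.2 and 12.7 FPKM in control, 11.02, 8.91 and 7.90 in HFD and 9.64, 8.81 and 8.04 with the bacterium. Every control library lay above the other 6, control 1 far above and control 2 just above HFD 1. The log2 differences from control were -0.71 in HFD (limma adjusted p = 0.113) and -0.77 with the bacterium (limma adjusted p = 0.186); without control 1 they were -0.34 and -0.40, and no alternative called either. Zfp36 was at 26.7, 25.8 and 44.5 FPKM in control, 24.8, 23.4 and 13.8 in HFD and 20.1, 14.1 and 13.5 with the bacterium. Control 3 was highest, and both other groups lay below control while overlapping each other. The log2 differences were -0.62 for HFD (SE 0.28, limma adjusted p = 0.155) and -0.95 with the bacterium (SE 0.28, 95% interval -1.59 to -0.32, limma adjusted p = 0.116), and neither was called in any of 20 alternatives. Dusp1 overlaps Ergic1 (4.87 to 11.6 FPKM) at its far end in GENCODE M21, and a gene model antisense to Zfp36, Gm44710, measured 0.362 to 2.0 FPKM.

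Of 20 other immediate early transcription factors, 17 were tested (Fosl1, Egr2 and Egr4 were too low). In HFD against control limma called 2 of the 17 up and 2 down, beside 10.6% and 9.11% of all tested genes. Egr3, a relative of Egr1, rose from 0.220 ± 0.0825 to 1.203 ± 0.158 FPKM (log2 difference 0.85, SE 0.14, adjusted p = 0.0039), and Myc, a growth regulator, from 10.1 ± 1.24 to 15.0 ± 0.438 FPKM. Egr3 was 0.135 to 0.299 FPKM in control (9 to 20 fragments) and 0.244 to 0.586 FPKM with the bacterium. It passed the filter of 0.5 FPKM in 3 libraries only through HFD, so its tests are not free of that selection. Nfil3, a leucine zipper repressor, fell from 8.73 ± 1.26 to 4.01 ± 0.850 FPKM (called in 15 of 20 alternatives), and Jund from 121 ± 24.6 to 69.8 ± 15.5 FPKM (-0.79, adjusted p = 0.0314, called in 9 of 20). In the comparison of the bacterium with HFD, 0 of the 17 rose (2 at an unadjusted p below 0.05, and 0 by voom). In the same comparison 3 fell (6 at an unadjusted p below 0.05, and 4 by voom). Those called lower by limma were Myc, to 8.06 ± 1.64 FPKM (-0.84, adjusted p = 0.0074, called in 19 of 20), Egr3, to 0.427 ± 0.172 FPKM (-0.63, adjusted p = 0.0196, called in 13 of 20), and Cebpd, an acute phase factor, from 11.01 ± 0.850 to 5.88 ± 1.47 FPKM (adjusted p = 0.0210, called in 16 of 20). Egr3 and Myc were thus higher in HFD than in either other group, where Jun was lower. Against control, Klf4, a factor of differentiated epithelium, fell with the bacterium from 197 ± 27.2 to 84.5 ± 19.96 FPKM (-1.23, adjusted p = 0.0370, called in 8 of 20). Voom called 2 of the 17, Klf4 and Jund, lower there and 0 higher. With the bacterium, limma called 4.54% of all tested genes higher and 7.60% lower against HFD, and 0.262% and 0.843% against control. The median log2 differences of the 17 were -0.27, -0.22 and -0.30 in the 3 comparisons.

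Of 21 tested immediate early genes that are not transcription factors (Arc was too low), limma called 1 in HFD against control and 1 with the bacterium against HFD. It called 0 with the bacterium against control, where 3 lower and 0 higher had an unadjusted p below 0.05. The shares of all tested genes called in these 3 comparisons were 19.7%, 12.1% and 1.11%. Voom called 2, 1 and 1 of the 21, all lower, the last being Ier5. Ier5, a regulator of the heat shock response, fell in HFD from 42.0 ± 2.38 to 16.0 ± 2.88 FPKM (log2 difference -1.35, SE 0.20, adjusted p = 0.0023), in all 20 alternatives. Mcl1, a survival factor of the BCL2 family, was lower with the bacterium than in HFD (85.8 ± 13.5 against 123 ± 5.60 FPKM, adjusted p = 0.0498, called in 9 of 20). Ier5 thus moved in HFD in the direction of Jun, with 1 of the 21 called lower beside 9.11% of all tested genes. With the bacterium against HFD, 1 of the 21 was called lower beside 7.60%.

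Feedback inhibitors other than the members were called in both directions in HFD, at the share of genes at large. Of 20 genes, inhibitors of MAP kinase, NF-kB, cytokine and receptor signalling and relatives of Zfp36, 2 rose and 2 fell against control, 4 of 20 beside 19.7% of all tested genes. Dusp10, a phosphatase of JNK and p38, measured 8.82, 9.11 and 8.49 FPKM in control, 3.16, 3.17 and 3.04 in HFD and 8.96, 6.13 and 5.82 with the bacterium. It fell in HFD by 1.25 on the log2 scale (SE 0.15, limma adjusted p = 0.0008) and rose with the bacterium by 0.93 (adjusted p = 0.0043), both in all 20 alternatives. Dusp10 was thus lowest in the HFD libraries, as Jun was. Tnfaip3, the NF-kB inhibitor A20, moved the other way, from 3.28 ± 0.274 FPKM in control to 10.4 ± 2.23 in HFD (log2 difference 1.40, adjusted p = 0.0012) and 3.32 ± 0.713 with the bacterium (-1.40, adjusted p = 0.0015). Dusp2, an ERK phosphatase of immune cells, followed it at 1.60 ± 0.527, 4.24 ± 0.834 and 1.58 ± 0.0584 FPKM (log2 differences 1.02 and -1.01, adjusted p = 0.0047 and 0.0063). Errfi1, an inhibitor of the EGF receptor, fell in HFD from 30.1 ± 9.47 to 17.3 ± 3.54 FPKM (adjusted p = 0.0459). In the same HFD libraries the B cell, macrophage and T cell markers were also highest; T cell markers (6 genes) summed to 33.8 to 42.2 FPKM against 12.1 to 23.4 in control and 23.3 to 26.2 with the bacterium, and the part of these cells in Tnfaip3 and Dusp2 was not tested. In the comparison with control, limma called 0 of the 20 with the bacterium, beside 1.11% of all tested genes. There were 2 higher and 3 lower at an unadjusted p below 0.05, and voom called 0. In HFD against control, voom called 3 of the 20 higher and 2 lower.

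Of 25 genes that carry the signal from receptors to these promoters, limma called 4 of 25 in HFD against control, beside 19.7% of all tested genes. It called 0 with the bacterium against HFD, beside 12.1%, and 0 with the bacterium against control, beside 1.11%. At an unadjusted p below 0.05 there were 2 higher and 2 lower against HFD, and 3 higher and 6 lower against control. Voom called 0 in these 2 comparisons. Creb1, which binds the CRE, rose from 2.82 ± 0.0692 to 4.45 ± 0.388 FPKM (log2 difference 0.51, adjusted p = 0.010, called in 18 of 20 and lost without HFD 4). Map2k2, an ERK kinase, fell from 32.2 ± 5.41 to 19.3 ± 1.83 FPKM (-0.70, adjusted p = 0.0110, called in 19 of 20 and lost without HFD 1), and Mapk8, the JNK1 gene, from 4.62 ± 0.364 to 3.16 ± 0.192 FPKM (-0.43, adjusted p = 0.0259, called in 11 of 20). Mapk3, the ERK1 gene, also fell, from 262 ± 81.2 to 135 ± 12.6 FPKM (adjusted p = 0.0264). Srf measured 21.6 ± 6.69, 13.0 ± 1.47 and 13.6 ± 3.10 FPKM in control, HFD and with the bacterium and passed in no comparison (adjusted p = 0.0691, 0.910 and 0.182). Of other proteins of the AP-1 and ATF families, 15 were tested (Fosl1 and Ddit3 were too low). In HFD against control 2 of them rose and 3 fell, beside 10.6% and 9.11% of all tested genes. Batf2, an interferon-induced partner of JUN proteins, rose from 6.34 ± 0.817 to 13.9 ± 3.50 FPKM (1.0, adjusted p = 0.0184, called in 18 of 20) and was 5.84 ± 1.82 with the bacterium (-1.14 against HFD, adjusted p = 0.0143, called in 19 of 20); both calls were lost without HFD 2. Batf, a JUN partner of lymphocytes, rose from 0.640 ± 0.214 to 2.23 ± 0.867 FPKM (adjusted p = 0.0340). Atf5 and Atf4, factors of the amino acid and unfolded protein responses, fell to 0.636 and 0.581 times their control levels (adjusted p = 0.0233 and 0.0254), as did Jund; these 2 calls were kept in 13 and 12 of 20 alternatives. For the bacterium against control, 0 of the 15 were called, beside 1.11% of all tested genes. There were 3 higher and 2 lower at an unadjusted p below 0.05, and voom called 1, Jund, lower.

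Of secreted and surface genes, 20 were tested (Il6, Cxcl1, Cxcl2 and Mmp9 were too low). In HFD against control 1 of them rose and 1 fell, beside 10.6% and 9.11% of all tested genes. Plaur, the urokinase receptor, fell from 5.62 ± 1.60 to 1.66 ± 0.229 FPKM (limma adjusted p = 0.0031, log2 difference -1.29, SE 0.20), in all 20 alternatives, and Ccl2, a monocyte chemokine, rose from 0.942 ± 0.424 to 2.79 ± 0.804 FPKM (adjusted p = 0.0420, called in 10 of 20). Between the bacterium and HFD, Plau, urokinase itself, fell from 10.6 ± 1.21 to 5.60 ± 1.05 FPKM (adjusted p = 0.0283, called in 14 of 20). Voom called 1 of the 20 higher and 2 lower, Plau among them, in that comparison. With the bacterium against control, limma called 0 of the 20, beside 1.11% of all tested genes. There were 2 lower and 0 higher at an unadjusted p below 0.05, and voom called 0. Of 12 heat shock genes, limma called 0 in each comparison, beside 19.7%, 12.1% and 1.11% of all tested genes. At an unadjusted p below 0.05 there were 1 higher and 1 lower, 2 higher and 1 lower, and 1 higher and 2 lower. Voom called 1, Hsp90ab1, lower with the bacterium against HFD. Across these lists Egr3, Dusp10, Dusp2, Tnfaip3, Ier5 and Plaur kept their calls of HFD against control in all 20 alternatives. Of these, Egr3 had passed the filter only through its HFD libraries. Mapk3, Errfi1, Batf, Srf, Fosl2, Hsp90ab1, Ccn1, Ccn2 and, in HFD against control, Myc were named after their values had been seen.

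Most members varied between libraries of a group more than genes at large. The pooled within-group SD of log2(FPKM + 1) had a median of 0.40 over the 10 members and 0.22 over all tested genes, and 8 of the 10 lay above the latter. Atf3 (0.66), Egr1 (0.51) and Fos (0.50) varied most; Jun (0.14) and Ier2 (0.14) varied least and lay at percentiles 21.3 and 20.6 of all tested genes. By group, the median SD of the members was 0.44 in control, 0.34 in HFD and 0.15 with the bacterium, beside 0.24, 0.12 and 0.20 over all genes. The libraries with the bacterium were thus the group in which the members spread less than genes at large, without a test of that difference. Counting error was smaller than the coefficient of variation (CV) of Fos, Jun, Junb, Egr1, Atf3, Ier2, Dusp1 and Zfp36 in each group. It was not for Ier3, whose CV was 2.18% in HFD and 1.76% with the bacterium against counting errors of 7.24% to 8.19% there, nor for every library of Fosb with the bacterium, where the CV was 11.5% and counting errors reached 11.8%.

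Single libraries carried many of the high values. Control 1 held the highest value of 5 members (Fosb, Jun, Atf3, Ier3 and Dusp1) and of 15 of the 38 other tested immediate early genes, beside 19.1% of all tested genes. Ccn1 and Ccn2, targets of YAP and SRF in mesenchymal cells, reached 28.5 and 27.7 FPKM there, with the next highest library at 10.6 and 15.8 FPKM. This is the library in which smooth muscle markers summed to 6699 FPKM, and the part of muscle in these values was not tested. Control 3 held the highest value of Junb, Egr1 and Zfp36, beside 16.2% of all genes, with smooth muscle markers at 1283 FPKM, HFD 1 that of Fos and HFD 2 that of Ier2. No member was highest in a library with the bacterium. HFD 4 was lowest for 3 members (Jun, Egr1 and Dusp1), and its mean over the 10 centred members was -0.39 on the log2 scale, against 0.09 and 0.08 in HFD 1 and HFD 2. The corresponding means were 0.57, -0.04 and 0.38 in control and -0.10, -0.36 and -0.22 with the bacterium, so the groups with and without the bacterium on the high-fat diet overlapped.

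**Figure D4:**
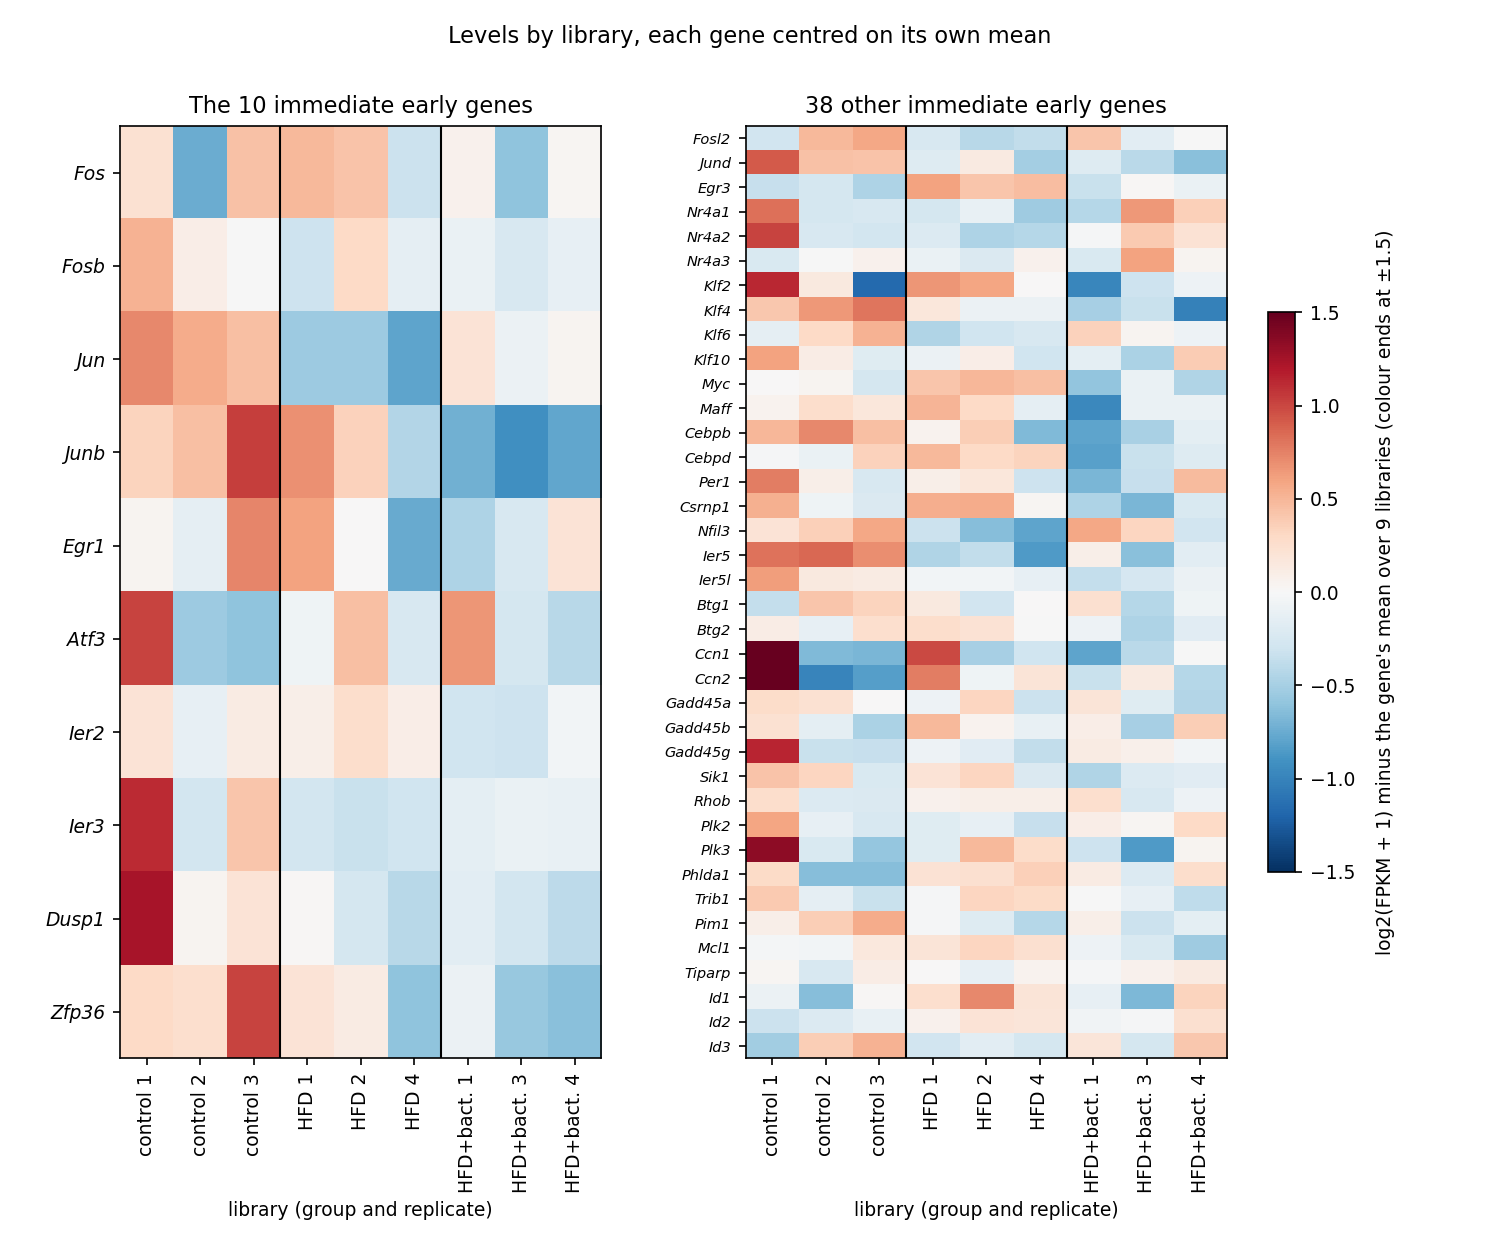
Log2(FPKM + 1) of each gene minus its mean over the 9 libraries, for the 10 members (left) and 38 other tested immediate early genes (right), with libraries in columns and lines between the groups. Control 1 is red for many genes (Ccn1 and Ccn2 there lie past the end of the scale at 1.5), Jun is blue in HFD, and Junb is blue with the bacterium.

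The members also differed in how alike their profiles were. Over the 9 libraries, the mean absolute difference between centred log2(FPKM + 1) profiles was smallest for Ier3 and Dusp1 (0.18), for Fosb and Ier2 (0.19) and for Junb and Zfp36 (0.25). Jun and Fos, the classical partners, differed by 0.55. Outside the list, the genes whose profile lay closest to the mean profile of the members among 14400 genes searched were Smim11, Pheta1, Safb2, Fbrs and Abt1, at 0.096 to 0.110. The closest to Fos were Gm15445, Gm10263, Gm25835, Gm14794 and Gnrh1, at 0.125 to 0.202, of which the first 4 are an antisense transcript, a pseudogene, a small nucleolar RNA and a pseudogene with means of 1.13 to 6.57 FPKM.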

How the data were processed

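RNA of 9 mouse colon libraries was sequenced; treatment labels gave the groups and titles gave the replicate numbers. The authors deposited FPKM values in 1 table. Per the submitters' processing notes, the aligner was HISAT2 2.0.5 and the build GRCm39. The counting tool, the annotation, the use of strand and the denominator of the FPKM were not given in the sources used here. Both the 10 members and the gene lists were chosen with earlier results of these data known.

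The limma package (3.58.1, R 4.3.3) was run with a variance trend on log2 of FPKM plus 1, with all 9 libraries in 1 fit, after a filter of 0.5 FPKM in 3 libraries that left 17907 genes. Benjamini-Hochberg adjustment was made over these genes in each comparison, and calls required an adjusted p under 0.05. Log2 differences on this scale understate changes of low genes. The procedure was run on simulated data in which each gene had the same spread in every group, unlike genes at large here. No outcome of that run is used. Named genes were all members, at most the 3 called genes with the smallest p of each other list and comparison, and the 5 genes closest in profile to the members' mean and to Fos; others are said to be named after their values were seen.

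Fragments were recovered from the FPKM as whole multiples, and implied gene lengths lay within 1% of GENCODE M21 for 97.97% of tested genes. The implied library sizes were 0.938 to 1.12 times the summed fragments of the tested genes, so rescaling by the fragments and limma voom on them were added as alternatives after the data had been seen. The others were the pseudocount, the filter, the trend, 3 scalings, the samples in the fit, a replicate block and leaving out each library, 20 in all. Counting errors cover sampling of fragments only. Promoter sequences are from RefSeq (GRCm38.p6), a build other than that of the reads.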

Additional observations from a re-analysis of the deposited data

How the results depend on the processing

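Jun in HFD against control kept its direction and its call in all 20 alternatives. Leaving out 1 library moved the count of members called between 1 and 2 (HFD against control), 0 and 2 (the bacterium against HFD) and 0 and 1 (the bacterium against control), and their median log2 difference between -0.62 and -0.15, -0.30 and -0.07, and -0.54 and -0.31. In the same leave-one-out fits the genes called over the whole table went from 1857 to 4521, from 1161 to 3588 and from 0 to 1186, against 3535, 2174 and 198 in the fit reported, and the members' median spread from 0.32 to 0.44.

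With the bacterium against HFD, 2 members (Jun and Junb) were called under quantile normalization, after rescaling without mitochondrial and immunoglobulin genes, with the 2 groups alone, after scaling by recovered fragments and by voom; scaling to equal sums called 1, Junb in place of Jun. Against control, 1 member (Junb) was called with a filter of at least 1 FPKM and by voom. There, the genes called over the table were 15 without a filter, 302 with the stricter filter, 46 under quantile normalization, 6 with equal sums, 380 after rescaling without mitochondrial and immunoglobulin genes and 2 with the 2 groups alone. The causes were not tested. Scaling shifted the median of all genes in HFD against control from -0.001 to 0.24 (equal sums), 0.17 (without mitochondrial and immunoglobulin genes) and 0.12 (recovered fragments), and the share of calls that were higher from 53.8% to 78.2%, 76.5% and 71.0%. With the bacterium against HFD equal sums gave a median of -0.20 and 25.3% of calls higher against 37.4%. Against control the share went from 23.7% to 76.8% without mitochondrial and immunoglobulin genes (median 0.14) and to 51.0% by recovered fragments.

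Deviations of same-numbered libraries from their group means correlated from -0.16 to 0.19, and those of differently numbered libraries from -0.17 to 0.15. With so few libraries these values do not settle whether the replicate numbers pair them. With the replicate number as a block, 1985, 1288 and 0 genes were called over the table and 1, 1 and 0 members.

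Differences that were not called changed sign as follows. With the bacterium against HFD, Ier3 was at -0.000705 with equal sums, and with the replicate block Fosb was at 0.00216 and Atf3 at 0.0866. Against control, Fos was at 0.0654 after rescaling without mitochondrial and immunoglobulin genes. On leaving out 1 library the ranges that crossed 0 were, in HFD against control, -0.14 to 0.48 for Fos, -0.59 to 0.10 for Egr1, -0.18 to 0.63 for Atf3 and -0.0111 to 0.15 for Ier2. With the bacterium against HFD they were -0.23 to 0.0687 for Fosb, -0.47 to 0.21 for Egr1, -0.39 to 0.15 for Atf3 and -0.15 to 0.0628 for Dusp1, and against control -0.50 to 0.0855 for Fos and -0.30 to 0.57 for Atf3. Of all recomputed log2 differences of the members and of the other genes followed, 962 kept direction and side of the threshold, 100 lost a call, 14 gained one and 24 changed sign. Depth limits Fosb most, whose 72 to 197 fragments give counting errors of 7.12% to 11.8%.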
